A study of Mus musculus with 8 samples.

Results

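The ADAM, ADAMTS, MMP and TIMP genes were followed by RNA-seq in vascular smooth muscle cells, which give the artery wall its contraction, in primary culture from mice. The families were chosen with earlier results of these data known. Their members were then taken by gene name from a table of 27249 genes, and 74 matched. They comprised 26 ADAM, 19 ADAMTS, 5 ADAMTS-like, 20 MMP and 4 TIMP genes. The study set cells with overexpressed THOC5, part of the THO complex of mRNA export, against cells with overexpressed green fluorescent protein (GFP). Both were cultured in growth medium and in osteogenic medium, for which the series design gives phosphate (Pi) for 6 days. The 8 libraries fell into 4 groups of 2, namely GFP growth, GFP osteogenic, THOC5 growth and THOC5 osteogenic. THOC5 cells carry the overexpression as their genotype label and GFP cells the label WT. The labels give no animal age, vector, promoter or clone, and they do not say whether the 2 libraries of a group came from separate cultures. The p-values below therefore measure only the spread between libraries, which may be technical.

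These families cut and remodel the matrix and the cell surface. ADAMs are membrane-bound proteases, and several release growth factors, cytokine receptors or adhesion molecules from the cell. ADAMTS enzymes are secreted and cut proteoglycans, procollagens and other matrix proteins, and ADAMTS-like proteins share their matrix-binding parts but lack the protease domain. MMPs degrade collagens, elastin, laminins and other matrix proteins, either secreted or held at the membrane, and TIMPs are their natural inhibitors. In the artery wall, smooth muscle cells are a main source of MMP2, MMP14 and the TIMPs, and elastin breakdown by MMPs has been studied in medial calcification.

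Values are normalized counts, which are reads divided by 1 size factor per library, so they compare libraries for 1 gene and not genes of different length. Each library held between 7058681 and 10581042 reads. A count of 0 allows up to 3 reads, or 2.59 to 3.99 normalized counts, counting error only. Thoc5, the overexpressed gene, stood at 458 and 471 normalized counts in GFP growth, 649.5 and 615 in GFP osteogenic, 2155 and 1406 in THOC5 growth, and 1780.2 and 1937 in THOC5 osteogenic. Both THOC5 groups lay above both GFP groups, as their labels say.

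Of the 74 members, 66 reached 1 normalized count in at least 2 libraries and were tested, and 36 averaged at least 50 normalized counts. The 8 untested members were Adam7, Adam25, Adam28, Adam30, Adamts8, Adamts13, Adamts18 and Mmp1a. In all, 17 members had at most 3 reads in every library, and 31 averaged under 10 normalized counts. Mmp9 (gelatinase B), known from inflamed arteries, had between 0 and 4 reads a library. Mmp8, the neutrophil collagenase, also had between 0 and 4, and Mmp12, the macrophage elastase, between 0 and 2. Adam8, known from leukocytes, was low, at 9.55 to 17.3 normalized counts.

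Levels per kilobase of annotated exon allow genes to be ranked. In GFP growth the highest were Timp2 at 5275 ± 287 normalized counts per kb (SD, n = 2) and Timp1 at 2846 ± 113. Adam9 followed at 2168 ± 35.7 and the gelatinase Mmp2 at 2045 ± 175, and the ranges of these 2 genes overlapped. The membrane-type protease Mmp14 stood at 964 ± 23.4 and Timp3 at 896 ± 86.9, also with overlapping ranges, ahead of Adam10 at 472 ± 39.2. Timp2 and Timp1 kept the first and second place in all 4 groups.

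In GFP cells, osteogenic medium lowered a broad set of these genes. Of the 66 tested members 26 fell and 1, Adamts6, rose (limma on log2 of the normalized count plus 1, Benjamini-Hochberg adjusted p at most 0.05). Over all genes tested, 10.6% fell and 10.3% rose. The median log2 change was -0.54 over the tested members and 0.00 over all genes tested. Among members averaging at least 50 normalized counts 25 of 36 fell, beside 19.1% of all genes at that level. In bulk RNA, fewer cells of a type and less RNA per cell cannot be told apart.

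**Figure D1:**
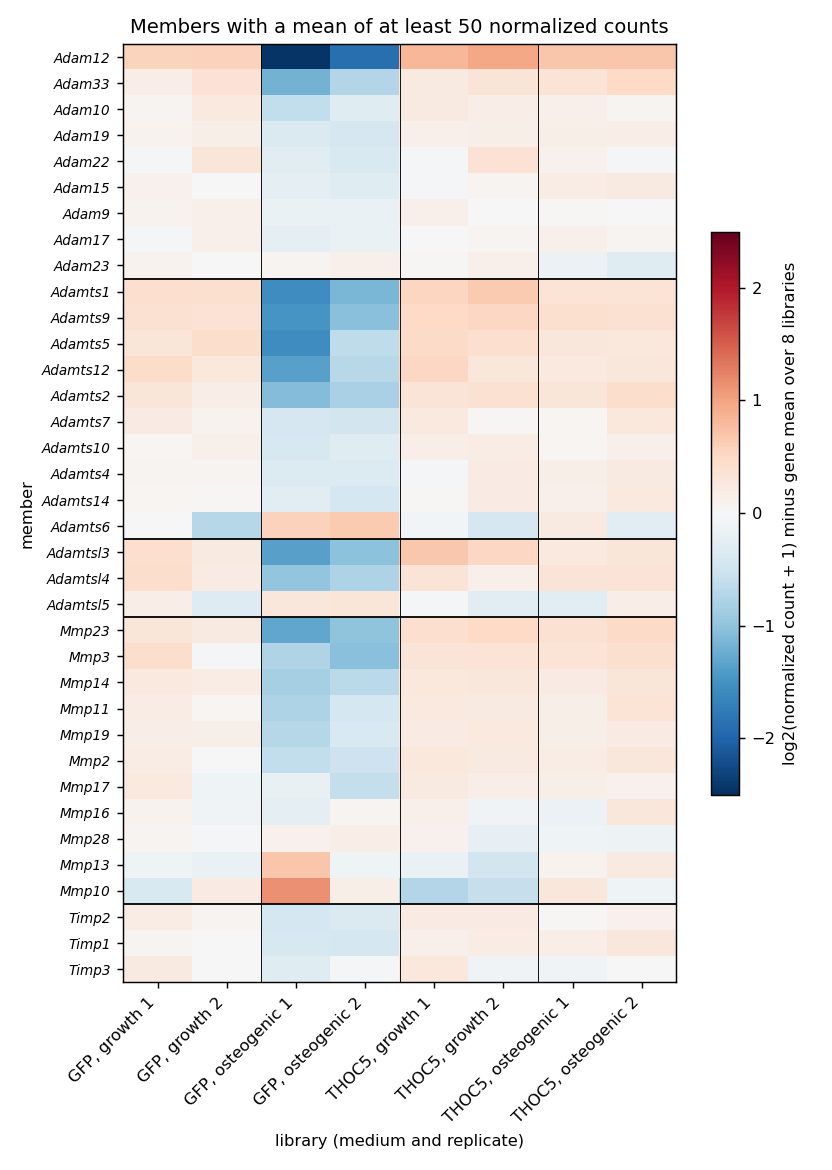
Heat map of the 36 members with a mean of at least 50 normalized counts, with members in rows by family and the 8 libraries in columns. Colour gives log2 of the normalized count plus 1 minus the gene's mean over the libraries. The 2 GFP osteogenic columns are blue for the 25 members that fell and red for Adamts6.

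The same 2 GFP osteogenic libraries were the 2 lowest of 8 for 35 of the 66 tested members, beside 18.4% of all genes. They were the 2 highest for 3 members, Adamtsl5, Mmp28 and Adamts6, beside 18.9% of all genes. In the fit, 54 of the 66 members had a lower and 12 a higher estimate in GFP osteogenic than in GFP growth.

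Promoter sequences of RefSeq (GRCm38.p6) were matched to 45 of the 74 members, and windows of 250 bases before the transcript start were searched. The letters searched were TGANTCA for AP-1, GGGCGG for the GC box bound by Sp factors, CCAAT for the CCAAT box and CATTCC for the TEAD (MCAT) element, each on both strands, and TATAAA for the TATA box on the given strand. Shown first are, from 3 families, the fallen members with the smallest p and 1 promoter in the table, and then the 3 MMP genes of a cluster on chromosome 9 that averaged at least 50 normalized counts. Capitals mark the motifs found, and positions count back from -1 at the last base before the start.
Adamts1, chr16:85803114-85803363, minus strand: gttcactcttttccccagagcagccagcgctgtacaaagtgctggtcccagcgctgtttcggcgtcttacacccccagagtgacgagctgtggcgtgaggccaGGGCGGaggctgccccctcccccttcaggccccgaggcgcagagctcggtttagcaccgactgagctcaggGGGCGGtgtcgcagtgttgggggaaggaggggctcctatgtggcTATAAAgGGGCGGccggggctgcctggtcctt
Mmp14, chr14:54431348-54431597, plus strand: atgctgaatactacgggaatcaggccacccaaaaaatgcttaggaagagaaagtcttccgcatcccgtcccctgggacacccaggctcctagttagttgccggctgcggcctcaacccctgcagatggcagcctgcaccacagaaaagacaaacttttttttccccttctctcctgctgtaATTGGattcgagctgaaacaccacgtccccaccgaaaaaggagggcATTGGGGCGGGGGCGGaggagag
Timp1, chrX:20869916-20870165, plus strand: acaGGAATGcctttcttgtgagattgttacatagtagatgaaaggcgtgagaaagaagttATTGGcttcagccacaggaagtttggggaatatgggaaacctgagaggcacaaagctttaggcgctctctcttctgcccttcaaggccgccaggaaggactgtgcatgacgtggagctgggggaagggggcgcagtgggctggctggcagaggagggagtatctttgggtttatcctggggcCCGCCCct
Mmp3, chr9:7445572-7445821, plus strand: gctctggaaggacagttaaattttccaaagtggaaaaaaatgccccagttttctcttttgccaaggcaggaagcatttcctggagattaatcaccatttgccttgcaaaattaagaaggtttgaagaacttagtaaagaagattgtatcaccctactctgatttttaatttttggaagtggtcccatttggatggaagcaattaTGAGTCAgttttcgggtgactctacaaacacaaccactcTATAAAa
Mmp10, chr9:7502092-7502341, plus strand: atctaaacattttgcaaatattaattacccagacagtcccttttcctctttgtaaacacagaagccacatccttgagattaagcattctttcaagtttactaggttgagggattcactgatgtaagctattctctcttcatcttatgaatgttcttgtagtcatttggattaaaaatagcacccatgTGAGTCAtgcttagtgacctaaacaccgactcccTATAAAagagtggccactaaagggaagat
Mmp13, chr9:7272264-7272513, plus strand: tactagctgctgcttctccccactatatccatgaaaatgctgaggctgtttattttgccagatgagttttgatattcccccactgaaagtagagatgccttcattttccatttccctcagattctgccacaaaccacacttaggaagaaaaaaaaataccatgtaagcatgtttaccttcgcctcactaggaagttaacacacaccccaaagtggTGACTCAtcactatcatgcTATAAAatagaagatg

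The window of Adamts1 held 3 GC boxes, at -147, -76 and -25, and a TATA box at -32. That of Mmp14 held GC boxes at -19 and -13 and CCAAT boxes at -69 and -23. Timp1 carried a GC box at -8, a CCAAT box at -190 and a TEAD element at -247. The windows of Mmp3, Mmp10 and Mmp13 each held AP-1 letters (at -46, -63 and -35) and a TATA box (at -7, -29 and -16), and held none of the other 3 motifs. Over the 19 windows of 16 fallen members, 63.2% held a GC box, beside 32.7% of all 32851 promoters, and the median GC content was 63.2% beside 52.4%. AP-1 letters stood in 10.5% of those windows and in 6.75% of all promoters, a CCAAT box in 26.3% and 33.8%, a TATA box in 10.5% and 7.59%, and TEAD letters in 10.5% and 12.6%. Of the 8 windows of other members averaging at least 50 normalized counts, 4 held a GC box and 2 held AP-1 letters. The median GC content of these 8 was 66.2%, so high GC content was not particular to the fallen members. Over the 49 windows of all 45 matched members, 49.0% held a GC box and the median GC content was 62%. Adam19 gave 3 and Mmp23 gave 2 of the 19 windows of fallen members. These matches are descriptions of letters in a window.

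Among the ADAMs, 6 of 22 tested members fell in GFP cells, beside 10.6% of all genes tested. Each of the 6 belongs to the somatic ADAMs with a zinc-binding protease site, of which 8 were tested. Adam12, a protease of muscle and mesenchymal cells, showed the largest change among members averaging at least 50 normalized counts. Its values were 784 and 795 normalized counts in GFP growth, 96.0 and 144 in GFP osteogenic, 947 and 1038 in THOC5 growth and 863 and 863 in THOC5 osteogenic. Both GFP osteogenic libraries lay far below the other 6. The GFP response was a 6.67-fold fall (log2 -2.74 ± 0.15 SE, limma adjusted p = 2.12e-06). Adam33, related to ADAM12 and known from airway smooth muscle, held 112 and 128 in GFP growth, 43.2 and 59.0 in GFP osteogenic, 116 and 124 in THOC5 growth and 125 and 139.9 in THOC5 osteogenic. It was 2.34-fold lower in GFP osteogenic (log2 -1.23 ± 0.18, limma adjusted p = 0.000633).

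The main sheddases changed less. Adam10, the sheddase of Notch receptors and cadherins, stood at 2180.4 and 2453 in GFP growth, 1357 and 1689 in GFP osteogenic, 2425 and 2328 in THOC5 growth and 2275 and 2189.9 in THOC5 osteogenic. The groups of GFP cells did not overlap, and the fall was 1.53-fold (log2 -0.61 ± 0.11, limma adjusted p = 0.00203). Adam10 did not pass when only the 4 GFP libraries were fitted. Without the second GFP growth library, Adam10 no longer passed. Adam17, which releases TNF and ligands of the EGF receptor, held 707 and 787 in GFP growth, 617 and 640.4 in GFP osteogenic, 725 and 754 in THOC5 growth and 788 and 757 in THOC5 osteogenic. Its GFP osteogenic libraries were also the 2 lowest, but its GFP response did not pass (log2 -0.25 ± 0.09, 95% interval -0.44 to -0.06, limma adjusted p = 0.0696).

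Adam9 was the most abundant ADAM per kilobase. It counted 8818 and 9026 in GFP growth, 7371 and 7392 in GFP osteogenic, 9009 and 8295 in THOC5 growth and 8474 and 8217 in THOC5 osteogenic, a fall of 1.21-fold in GFP cells (log2 -0.27 ± 0.08, limma adjusted p = 0.0384). Adam15, which binds integrins, counted 903 and 837, 701 and 673, 804 and 879, and 954 and 969 in the same order of groups (GFP response log2 -0.34 ± 0.09, limma adjusted p = 0.0158). Both calls rest on the whole set of libraries: Adam9 no longer passed when any 1 of the 4 GFP libraries or of the 2 THOC5 osteogenic libraries was left out, and Adam15 without GFP growth library 1 or either GFP osteogenic library. Neither passed when libraries were scaled to their totals or when only the 4 GFP libraries were fitted. Adam9 also did not pass with the replicate block, TMM factors or a pseudocount of 5. The library kit does not mark strand, so reads of genes that overlap on opposite strands cannot be told apart. Of their exon bases, Adam15 shared 20.6% with such a gene, Timp3 21.3% with Syn3, Mmp19 28.3% with Tmem198b and Gm47093, and Adamts9 and Mmp28 12% each with others. Adam19, a sheddase of neuregulins, counted 1290.1 and 1343, 949 and 914, 1332 and 1342, and 1344 and 1363 (GFP response log2 -0.50 ± 0.08, limma adjusted p = 0.000914), with both GFP osteogenic libraries below the rest.

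The 3 somatic ADAMs that lack a zinc site, Adam11, Adam22 and Adam23, act in adhesion and synapses, and 0 passed in the GFP response by limma, edgeR or DESeq2, with 2 at an unadjusted p under 0.05 by limma. Adam23 was estimated at log2 0.06 ± 0.11, Adam22 at -0.45 ± 0.19 and Adam11 at -0.68 ± 0.24. Of 11 tested ADAMs known mainly from the reproductive tract, 0 passed in the GFP response by limma, edgeR or DESeq2, and 2 had an unadjusted p under 0.05 by limma. Adam5, known from sperm, was the highest of the low group at 21.0 and 16.0 normalized counts in GFP growth, 6.05 and 10.7 in GFP osteogenic, 19.3 and 19.1 in THOC5 growth and 18.2 and 21.6 in THOC5 osteogenic. The summed level of 4 germ cell marker genes was 6.57 to 14.5 normalized counts in all 8 libraries.

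Of the 5 families, ADAMTS had the largest share of falls. In it 10 of 16 tested members were lower in GFP osteogenic, beside 10.6% of all genes tested, with a median log2 change of -0.96. The smaller class of somatic ADAMs with a zinc site had a larger share, with 6 of 8. Of the proteoglycanase clade, whose members cut versican and aggrecan, 5 of 6 fell. Adamts1, which cuts versican, stood at 1393 and 1361 in GFP growth, 353 and 470.5 in GFP osteogenic, 1507 and 1619.7 in THOC5 growth and 1310.4 and 1306 in THOC5 osteogenic. This was a 3.37-fold fall in GFP cells (log2 -1.75 ± 0.12, limma adjusted p = 5.59e-06). Adamts5, the main aggrecanase of mouse cartilage, lies 53.1 kb from Adamts1 on chromosome 16 and counted 2278 and 2518, 632 and 1194, 2594 and 2495, and 2264 and 2213. Its 2 GFP osteogenic libraries lay far apart, and both were below the other 6. Adamts5 did not pass when only the 4 GFP libraries were fitted. The fall was 2.75-fold (log2 -1.46 ± 0.21, limma adjusted p = 0.000636), and it did not pass without GFP growth library 2.

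Adamts9, another versicanase, counted 1009 and 1002 in GFP growth, 278 and 376 in GFP osteogenic, 1096 and 1109.7 in THOC5 growth and 1023 and 1014 in THOC5 osteogenic (GFP response log2 -1.64 ± 0.12, limma adjusted p = 9.66e-06). Adamts4 (aggrecanase) counted 763 and 763, 573 and 578, 716 and 839, and 811 and 856 in that order of groups (log2 -0.41 ± 0.09, limma adjusted p = 0.00969). The Adamts4 call was lost with either GFP growth library or GFP osteogenic library 1 left out, and under scaling to library totals. Adamts15 was scarce, with 11 and 11 reads in GFP growth, 2 and 2 in GFP osteogenic, 23 and 25 in THOC5 growth and 16 and 13 in THOC5 osteogenic. From summed reads it was 7.77-fold higher in GFP growth than in GFP osteogenic, with an exact 95% counting interval of 2.64 to 31.0 (fitted log2 -2.41 ± 0.38, limma adjusted p = 0.00104).

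Among the procollagen N-propeptidases, which trim fibrillar procollagens, 2 of 3 fell. Adamts2, the main enzyme for skin procollagen, stood at 2835 and 2571 in GFP growth, 1093 and 1317 in GFP osteogenic, 2871 and 3019 in THOC5 growth and 2832 and 3114 in THOC5 osteogenic. It fell 2.25-fold in GFP cells (log2 -1.17 ± 0.10, limma adjusted p = 2.58e-05). Adamts14 counted 434 and 429, 348 and 309, 428 and 482, and 456 and 496 (log2 -0.40 ± 0.10, limma adjusted p = 0.0193), and its call was lost without either GFP growth library, without GFP osteogenic library 2, and under scaling to library totals. Adamts3 was low, at 2.59 to 15.1 normalized counts, and did not pass (log2 -0.82, limma adjusted p = 0.369).

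Of the remaining ADAMTS genes, Adamts7 and Adamts12 cut cartilage oligomeric matrix protein (COMP), and Adamts7 is a known risk gene for coronary disease. Adamts12 counted 452 and 392 in GFP growth, 128 and 203 in GFP osteogenic, 468 and 399 in THOC5 growth and 389 and 402 in THOC5 osteogenic (log2 -1.38 ± 0.18, limma adjusted p = 0.000341). Adamts7 counted 231 and 214, 150.5 and 145, 238 and 204, and 206 and 242 (log2 -0.59 ± 0.13, limma adjusted p = 0.00747), and did not pass with any 1 of the 4 GFP libraries left out. Adamts10, which binds fibrillin, counted 648 and 689.9, 477 and 509.8, 712 and 718, and 648 and 691 (log2 -0.44 ± 0.09, limma adjusted p = 0.00432), a call lost without GFP growth library 2. In each of these 3 genes both GFP osteogenic libraries were below the other 6. Adamts6, related to Adamts10, was the 1 member to rise, from 48.9 and 29.2 in GFP growth to 72.6 and 76.9 in GFP osteogenic, beside 46.3 and 36.3 in THOC5 growth and 57.2 and 40.4 in THOC5 osteogenic (log2 0.96 ± 0.28, limma adjusted p = 0.0294). Adamts6 did not pass without GFP growth library 2 or without either GFP osteogenic library.

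Of the ADAMTS-like genes 2 of 5 fell, beside 10.6% of all genes tested. Adamtsl3 counted 1511 and 1316 in GFP growth, 442 and 557 in GFP osteogenic, 1792 and 1612 in THOC5 growth and 1339 and 1402 in THOC5 osteogenic, a 2.84-fold fall in GFP cells (log2 -1.51 ± 0.12, limma adjusted p = 1.23e-05). Adamtsl4, a fibrillin-binding protein of the eye's zonule, counted 785 and 667, 291 and 338, 719 and 626, and 722 and 737 (log2 -1.21 ± 0.11, limma adjusted p = 4.26e-05). Both genes were lowest in the 2 GFP osteogenic libraries. Adamtsl5 ran the other way in its estimate and did not pass (log2 0.37 ± 0.19, limma adjusted p = 0.206).

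**Figure D2:**
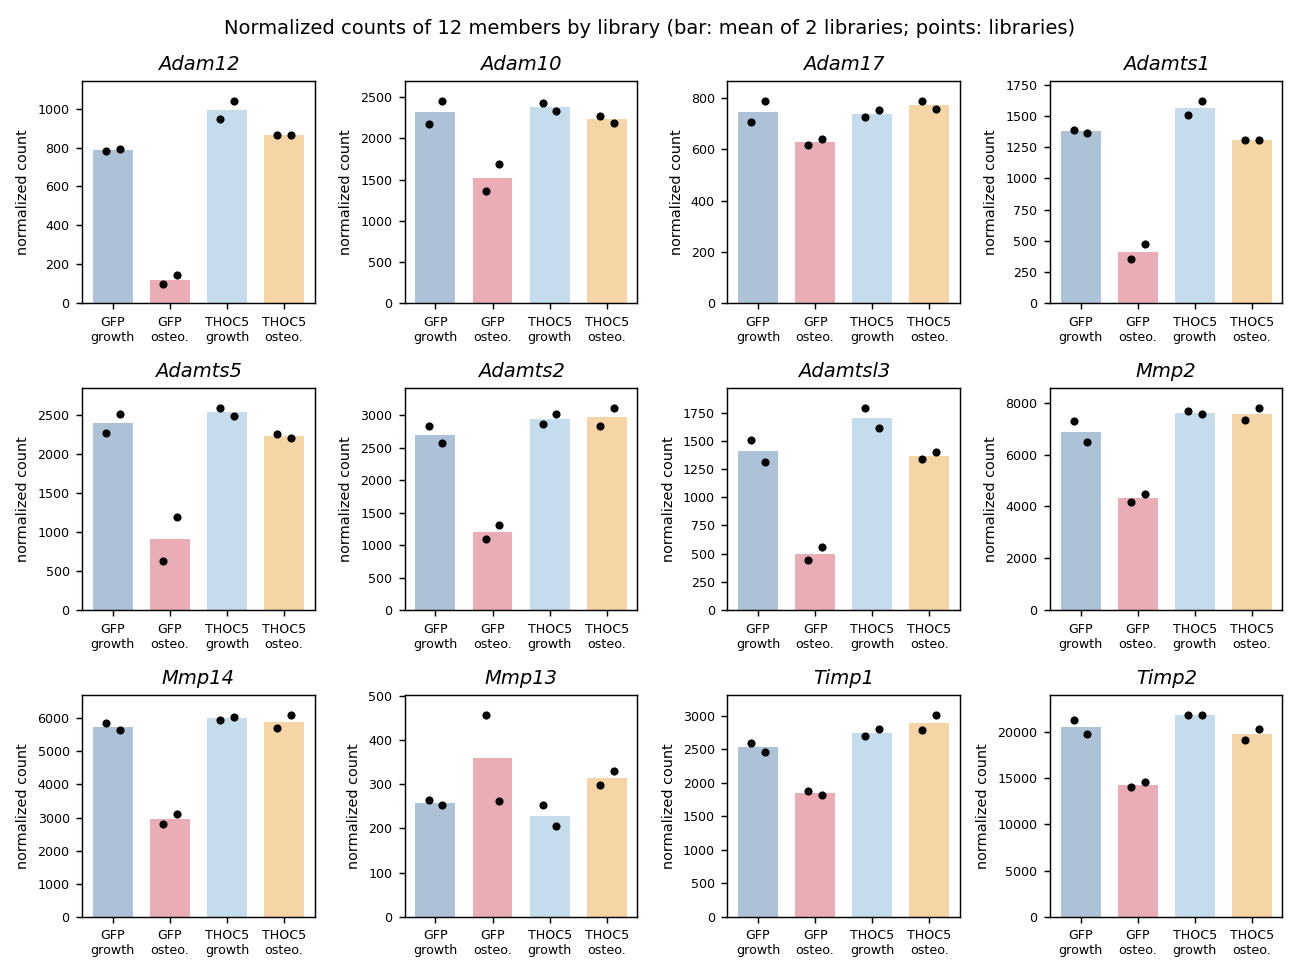
Normalized counts of 12 members in each group, with bars for the mean of 2 libraries, points for the libraries and each vertical axis starting at 0. The GFP osteogenic bar is the lowest for every gene shown except Mmp13, whose 2 GFP osteogenic libraries differ (457 and 262).

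Of the MMPs 6 of 19 tested members fell in GFP cells, beside 10.6% of all genes tested. Mmp14, the membrane-type protease that activates pro-MMP2 and cuts collagen, stood at 5845 and 5648 in GFP growth, 2794 and 3121 in GFP osteogenic, 5951 and 6038 in THOC5 growth and 5694 and 6105 in THOC5 osteogenic. The fall was 1.95-fold (log2 -0.96 ± 0.09, limma adjusted p = 2.83e-05). Mmp2, the gelatinase that MMP14 activates with the help of TIMP2, stood at 7312 and 6476, 4189 and 4495, 7694 and 7557, and 7328 and 7803, a fall of 1.59-fold (log2 -0.67 ± 0.09, limma adjusted p = 0.000424). For both, the GFP osteogenic libraries were the 2 lowest and the other 3 groups lay close together.

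Mmp23, a small membrane-anchored MMP, counted 889 and 844 in GFP growth, 293 and 359.6 in GFP osteogenic, 964 and 1026 in THOC5 growth and 936 and 1005 in THOC5 osteogenic, the largest fall among MMPs averaging at least 50 normalized counts (2.66-fold, log2 -1.41 ± 0.11, limma adjusted p = 1.02e-05). Mmp11 (stromelysin 3) counted 889 and 808, 456 and 572, 917 and 915, and 861 and 992 (log2 -0.73 ± 0.12, limma adjusted p = 0.00121). Mmp19 counted 626 and 618, 339.9 and 430.2, 647 and 668, and 621 and 643 (log2 -0.70 ± 0.11, limma adjusted p = 0.00108). In all 3 genes both GFP osteogenic libraries were the lowest.

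The 7 MMP members on chromosome 9 lie within 309 kb, and 6 of them were tested. Only Mmp3 (stromelysin 1) passed in the GFP response, with 671 and 479 in GFP growth, 293 and 241 in GFP osteogenic, 617 and 629 in THOC5 growth and 632 and 657 in THOC5 osteogenic (log2 -1.09 ± 0.15, limma adjusted p = 0.00041). Its neighbours Mmp13 (collagenase 3, known from bone and cartilage) and Mmp10 (stromelysin 2) had estimates in the other direction and did not pass. Mmp13 counted 263 and 253, 457 and 262, 253 and 204, and 298 and 329 (log2 0.42 ± 0.21, limma adjusted p = 0.188). Mmp10 counted 39.6 and 59.8, 116 and 57.2, 30.9 and 34.4, and 63.6 and 47.9 (log2 0.73 ± 0.32, limma adjusted p = 0.141). For both, GFP osteogenic library 1 was the highest of 8 and library 2 lay among the others, and both passed when library 2 was left out (limma adjusted p = 0.0116 for Mmp13 and 0.038 for Mmp10). Mmp16 and Mmp28 moved by log2 -0.07 ± 0.18 and 0.12 ± 0.13 and did not pass.

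Of the 4 inhibitors, Timp1 and Timp2 fell, beside 10.6% of all genes tested. Timp2 counted 21339 and 19760.1 in GFP growth, 13989 and 14599 in GFP osteogenic, 21852 and 21819 in THOC5 growth and 19164 and 20314 in THOC5 osteogenic (log2 -0.52 ± 0.09, limma adjusted p = 0.00257). Timp1, an X-linked gene that also acts as a growth factor, counted 2599 and 2457, 1872 and 1815, 2694 and 2801, and 2785 and 3015 (log2 -0.45 ± 0.08, limma adjusted p = 0.00211). Both fell by less than Mmp14 in the fit, with 1.44-fold for Timp2 and 1.37-fold for Timp1. Timp3, the matrix-bound inhibitor that also blocks ADAM17 and ADAMTS enzymes, counted 7799.8 and 6799, 5451 and 6589, 8086 and 6316, and 6282 and 6709. Both GFP osteogenic values were below both of GFP growth, the THOC5 libraries spanned much the same range as the GFP libraries, and its GFP response did not pass (log2 -0.28 ± 0.13, 95% interval -0.57 to 0.01, limma adjusted p = 0.165). Timp4 was near the detection limit at 2.59 to 9.32 normalized counts.

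Summed per kilobase, the MMPs stood at 4617 and 4176 in GFP growth, 2579 and 2692 in GFP osteogenic, 4763 and 4742 in THOC5 growth and 4597 and 4911 in THOC5 osteogenic. The TIMPs stood at 9363 and 8674, 6369 and 6601, 9636 and 9531, and 8827 and 9434. The ratio of the TIMP sum to the MMP sum, which does not depend on scaling between libraries, was 2.03 and 2.08 in GFP growth and 2.47 and 2.45 in GFP osteogenic. It was 2.02 and 2.01 in THOC5 growth and 1.92 and 1.92 in THOC5 osteogenic. Both GFP osteogenic libraries thus had the highest ratio of transcripts. Over the 8 libraries Timp2 made up 57.3% of the TIMP sum and Mmp2 47.4% of the MMP sum, so the ratio rests largely on these genes. These sums are descriptions without a test.

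**Figure D3:**
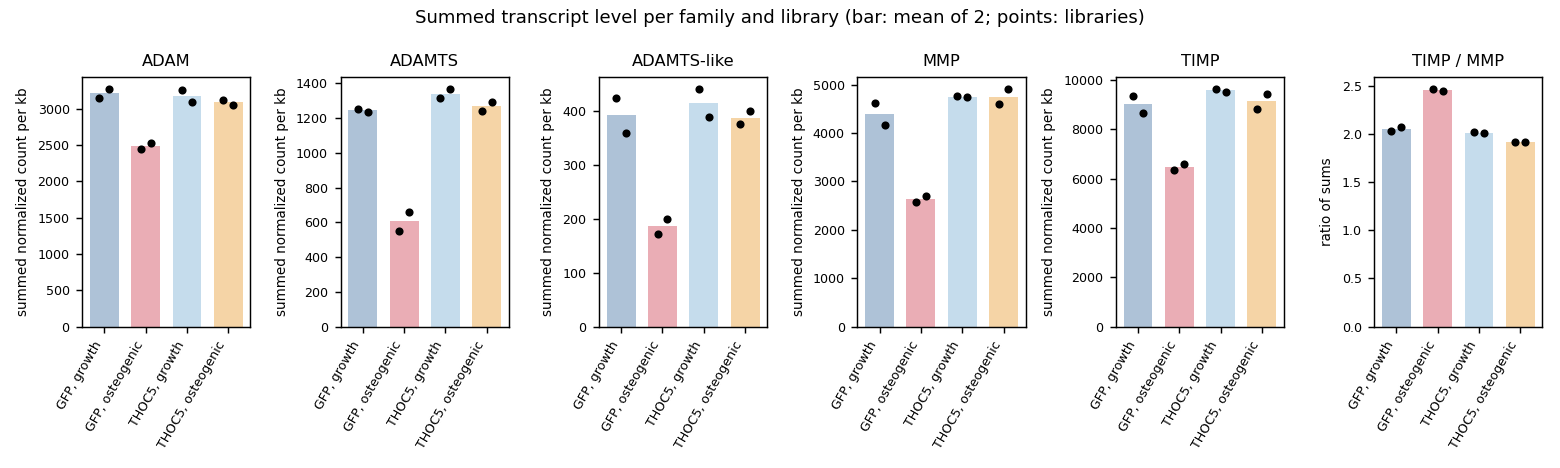
Summed normalized counts per kb of each family, and the ratio of the TIMP to the MMP sum, with bars for the mean of 2 libraries and points for the libraries. The sums are lowest in GFP osteogenic in each of the 5 families, and the ratio is highest there (2.47 and 2.45). A single gene makes up 67.6% of the ADAM sum (Adam9), 57.3% of the TIMP sum (Timp2) and 47.4% of the MMP sum (Mmp2). It makes up 46.5% of the ADAMTS-like sum (Adamtsl3) and 23.6% of the ADAMTS sum (Adamts2).

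In THOC5 cells, none of the 66 tested members passed between osteogenic and growth medium. The limma fit called 0, with 6 members at an unadjusted p under 0.05, and edgeR and DESeq2 also called 0. Over all genes tested the fit called 0.54% in this comparison. The median log2 change of the members was -0.01, beside -0.01 over all genes. Adam12 changed by log2 -0.20 (95% interval -0.53 to 0.13), Adamts1 by -0.26 (-0.52 to 0.00), Mmp14 by -0.02 (-0.21 to 0.16), Mmp2 by -0.01 (-0.21 to 0.19), Timp1 by 0.08 (-0.10 to 0.25) and Timp2 by -0.15 (-0.35 to 0.06). A missed threshold does not show that the groups were alike. Adamtsl3 had the lowest estimate among members averaging at least 50 normalized counts, at -0.31 ± 0.12 (limma adjusted p = 0.793), and Mmp10 the highest, at 0.74 ± 0.32 (limma adjusted p = 0.872).

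**Figure D4:**
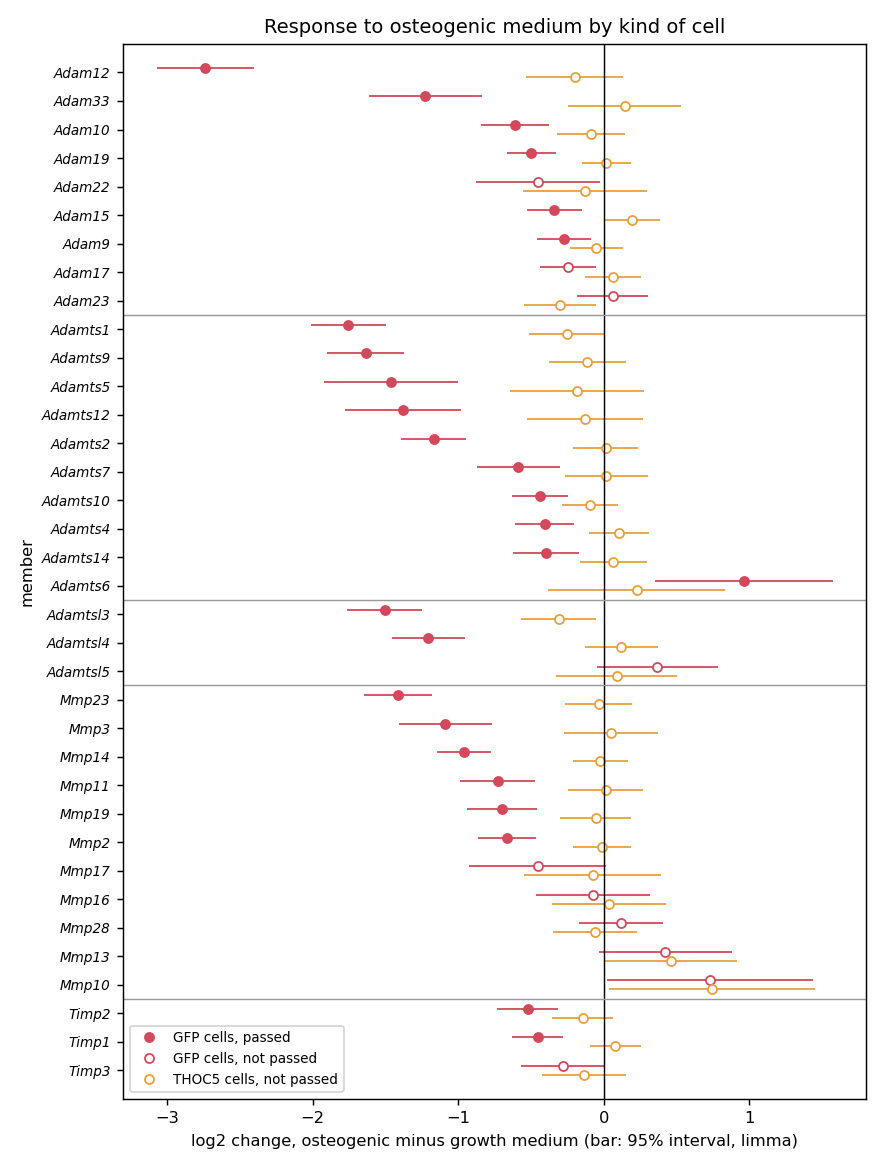
Log2 change from growth to osteogenic medium with its 95% interval for the 36 members with a mean of at least 50 normalized counts, in GFP cells and in THOC5 cells. Filled points passed at an adjusted p of 0.05. In GFP cells 25 points left of 0 and Adamts6 right of 0 are filled, and in THOC5 cells none is.

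Between THOC5 and GFP cells in growth medium, 0 of 66 tested members passed by limma, by edgeR or by DESeq2. Adamtsl3 was the 1 member at an unadjusted p under 0.05, with log2 0.27 ± 0.12 (limma adjusted p = 0.906). Over all genes tested 0.00443% passed, which was 1 gene. Adam12 was estimated at log2 0.33 (95% interval -0.00 to 0.66), Mmp2 at 0.15 (-0.05 to 0.35), Mmp14 at 0.06 (-0.13 to 0.25) and Timp1 at 0.12 (-0.05 to 0.30).

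In osteogenic medium, 28 of 66 tested members were higher in THOC5 than in GFP cells and 0 were lower by limma, with 3 lower at an unadjusted p under 0.05. With edgeR Adam23, a non-protease ADAM, was lower, and with DESeq2 0 members were. Of all genes tested 11.3% were higher and 10.7% lower. The members' median log2 difference was 0.58, beside 0.00 over all genes. This comparison shares its GFP osteogenic libraries with the GFP response, so the 2 sets of calls are not independent, and the values of each stand side by side here. Adam12 was 7.28-fold higher in THOC5 cells (log2 2.86 ± 0.15, limma adjusted p = 1.9e-06), Adamts1 3.20-fold (1.68 ± 0.12, limma adjusted p = 6.63e-06) and Adamts9 3.15-fold (1.65 ± 0.12, limma adjusted p = 8.26e-06). Mmp23 was 2.98-fold higher (1.58 ± 0.11, limma adjusted p = 4.82e-06) and Adamts2 2.47-fold (1.31 ± 0.10, limma adjusted p = 1.23e-05).

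By family the higher members numbered 8 of 22 ADAMs, 10 of 16 ADAMTS, 2 of 5 ADAMTS-like genes, 6 of 19 MMPs and 2 of 4 TIMPs. Over all genes tested 11.3% were higher. Mmp14 differed by log2 1.00 ± 0.09 (limma adjusted p = 2e-05), Mmp2 by 0.80 ± 0.09 (limma adjusted p = 0.000119), Timp1 by 0.65 ± 0.08 (limma adjusted p = 0.000205) and Timp2 by 0.47 ± 0.09 (limma adjusted p = 0.00479). Among members not called in the GFP response, Adam17 (0.30 ± 0.09, limma adjusted p = 0.0314), Adam11 (1.00 ± 0.24, limma adjusted p = 0.0105) and Adam5 (1.19 ± 0.36, limma adjusted p = 0.0363) passed here. Adam17 no longer passed when any 1 of the 4 osteogenic libraries was left out, and Adam11 without either GFP osteogenic library or THOC5 osteogenic library 2. Adam5 was lost without any 1 library other than GFP osteogenic library 2. Without THOC5 osteogenic library 2, Adamts7, Adamts10, Adamts14 and Timp2 no longer passed either. With only the 4 osteogenic libraries fitted, Adam5, Adam10, Adam17, Adamts5, Adamts12, Mmp19 and Timp2 no longer passed, and the scarce Adamtsl2 did. In the main fit Adam9, Adamts6 and Timp3 did not pass, at log2 0.18 ± 0.08, -0.63 ± 0.28 and 0.12 ± 0.13.

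The interaction asks whether the response to osteogenic medium itself differed between THOC5 and GFP cells. It passed for 19 of 66 tested members, each with a difference (THOC5 response minus GFP response) above 0. In each the GFP response was a fall, and the THOC5 response, which did not pass, was less negative or above 0. No member passed with a difference below 0 by limma, edgeR or DESeq2. Only 1 member, Adam23, was below 0 at an unadjusted p under 0.05 by limma. Over all genes tested 5.3% were higher and 3.92% lower. The difference was log2 2.54 ± 0.21 for Adam12 (limma adjusted p = 0.000287), 1.52 ± 0.17 for Adamts9 (limma adjusted p = 0.000738), 1.50 ± 0.17 for Adamts1 (limma adjusted p = 0.000692), 0.94 ± 0.12 for Mmp14 (limma adjusted p = 0.00138), 0.65 ± 0.13 for Mmp2 (limma adjusted p = 0.01) and 0.53 ± 0.11 for Timp1 (limma adjusted p = 0.0146). Adam10 (0.52 ± 0.15, limma adjusted p = 0.0541), Adam17 (0.31 ± 0.12, limma adjusted p = 0.155) and Timp2 (0.38 ± 0.13, limma adjusted p = 0.111) did not pass. The count of 19 depended on single libraries, with 0 calls without GFP growth library 1, 4 without GFP growth library 2, 8 without THOC5 osteogenic library 2, and 11 without THOC5 growth library 1 or without THOC5 osteogenic library 1. The direction of these estimates did not change in any of those fits.

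Genes that work with these proteases were counted from lists drawn up beside the members, and the GFP response comes first. These counts stand beside 10.6% of all genes tested that fell and 10.3% that rose. Of 15 tested matrix substrates of ADAMTS enzymes 12 fell and 0 rose by limma, edgeR or DESeq2, with none rising at an unadjusted p under 0.05 and a median log2 change of -1.05. Col1a2 fell by 1.68 ± 0.14 (limma adjusted p = 2.09e-05) and Col1a1 by 1.69 ± 0.16 (limma adjusted p = 3.61e-05), the chains of type I collagen. Col5a1 fell by 1.08 ± 0.10 (limma adjusted p = 3.42e-05) and Ltbp1, which tethers latent TGF-beta, by 1.25 ± 0.11 (limma adjusted p = 3.07e-05). Another list held other protease inhibitors and clearance receptors, and also Pcolce, an enhancer of procollagen C-proteinase. Of its 12 tested genes 5 fell, with a list median of 0.03. A2m, the broad protease trap alpha-2-macroglobulin, fell from 563 to 14.2 normalized counts (means of 2 libraries, log2 -5.28 ± 0.38, limma adjusted p = 8.05e-06). Lrp1, the receptor that clears protease complexes, fell by 1.53 ± 0.13 (limma adjusted p = 2.12e-05), Pcolce by 0.98 ± 0.08 (limma adjusted p = 2.09e-05) and Ecm1 by 0.72 ± 0.08 (limma adjusted p = 0.000169).

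The counts in this paragraph too stand beside 10.6% of all genes tested that fell and 10.3% that rose. Of 12 tested partners in the maturation of ADAM10 and ADAM17, 4 fell and 2 rose. The proprotein convertases Pcsk5 and Pcsk6 fell by log2 2.07 ± 0.15 (limma adjusted p = 9.66e-06) and 0.71 ± 0.10 (limma adjusted p = 0.000566). The iRhom gene Rhbdf1 fell by 0.48 ± 0.09 (limma adjusted p = 0.00284), and its partner Frmd8 rose by 0.45 ± 0.10 (limma adjusted p = 0.00856). Of 26 surface substrates shed by ADAMs 11 fell and 2 rose, with Cdh11 at -1.39 ± 0.11, Pdgfrb at -1.23 ± 0.14, Cx3cl1 at -0.84 ± 0.10 and Sdc4 at -0.60 ± 0.08, each past the threshold. Of 6 other metzincins Bmp1, the procollagen C-proteinase (-1.08 ± 0.08, limma adjusted p = 1.05e-05), and the scarce Pappa (-1.32 ± 0.36, limma adjusted p = 0.0229) fell. Mep1a and Pappa2 of that list did not pass by limma, at 1.82 ± 0.66 and -0.35 ± 0.16. With edgeR Mep1a was higher, and DESeq2 called Bmp1 alone.

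In the plasminogen system, which can activate pro-MMPs, Plat, tissue plasminogen activator, fell by log2 0.72 ± 0.08, while Plaur, the urokinase receptor, rose by 1.00 ± 0.15 (limma adjusted p = 0.00012 and 0.000726). Serpinb2 did not pass (1.93 ± 0.71). Of 15 AP-1, ETS, RUNX and C/EBP factors known from MMP promoters 4 fell and 5 rose, beside 10.6% and 10.3% of all genes tested. Fosb rose by 2.47 ± 0.30 and Etv4 by 1.12 ± 0.16, and Runx1 fell by 0.58 ± 0.09 and Fosl2 by 0.68 ± 0.10 (limma adjusted p = 0.00023, 0.000655, 0.00081 and 0.000871). In THOC5 cells, and between THOC5 and GFP cells in growth medium, 0 of the 92 tested genes of these 7 lists passed by limma, with 13 and 5 at an unadjusted p under 0.05. DESeq2 also called 0 in both, and edgeR called 1 in THOC5 cells, Fbn2 (lower, encoding fibrillin-2), and 0 in growth medium. Over all genes tested, limma called 0.54% in THOC5 cells and 0.00443% in growth medium. Between THOC5 and GFP cells in osteogenic medium 39 of the 92 were higher and 10 lower by limma, and in the interaction 33 were higher and 3 lower. Among them, 11 of the 15 matrix substrates were higher in osteogenic medium, and 10 in the interaction. Over all genes tested, 11.3% were higher and 10.7% lower in osteogenic medium, and 5.3% higher and 3.92% lower in the interaction. The counts of lower genes lay near these shares.

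Some markers of cell type moved with the GFP response as well, where 10.6% of all genes tested fell and 10.3% rose. All 6 smooth muscle markers fell, and their summed level went from 24470 to 28371 normalized counts in GFP growth down to 11882 to 13767 in GFP osteogenic, beside 24980 to 30982 in THOC5 cells. Of 6 fibroblast markers Pdgfra, Lum and Dcn fell, with sums of 14698 to 17068 and 4719 to 6581, beside 15206 to 19339.5 in THOC5 cells. Macrophage markers summed to 488 to 498 and 454 to 474, where Lyz2 fell and Cd68 rose, and Ptprc, the defining leukocyte gene, was listed at 0 in 5 of 8 libraries and below 2 in the others. Endothelial markers summed to 75.8 to 117 and 36.7 to 55.4, where Vwf fell. The median log2 change of the 4 endothelial markers tested was 0.52, opposite in direction to the sum. Cdh5 and Emcn were not among the deposited genes. The part of cell type makeup in the members' changes was not tested.

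The authors' deposited table gives its own fold changes and adjusted p-values for 4 of these comparisons. For the GFP response it called 26 members lower and 0 higher, the same 26 that fell here, and did not call Adamts6. The authors' deposited table called 26 members higher in THOC5 than in GFP cells in osteogenic medium, which were the 28 called here without Adam5 and Adam17. It called 0 members in the other 2 comparisons, by an adjusted p of at most 0.05.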

How the data were processed

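Polyadenylated RNA of 8 libraries, 2 in each of 4 groups taken from the sample titles, was sequenced after TruSeq library preparation, per the labels' protocols. The deposited signal is the authors' size-factor-normalized count per gene. Undoing the factors returned whole reads for 100% of values (at most 1.34e-09 from an integer). The authors' table also gives log2 fold changes, a test statistic (a score), p-values and adjusted p-values for 4 comparisons, per the file headers. The submitters' processing notes name mm10, Bowtie2, SAMtools, MACS2 and FastQC without versions, and the gene counter is not given in the sources used here. RNA immunoprecipitation libraries of the study were not analysed here.

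limma 3.58.1 (R 4.3.3, trend option) was fitted to normalized counts on a log2 scale, after adding 1, for the 22575 genes reaching 1 in 2 or more libraries. A single fit without block held all 8 libraries, leaving 4 residual degrees of freedom. The 5 contrasts were adjusted by Benjamini-Hochberg over all genes tested, with a threshold of 0.05. Folds on this scale understate changes of low genes. edgeR 4.0.16 and DESeq2 1.42.0 were run on recovered reads, and other pseudocounts, filters, scalings, samples and a replicate block were tried. On simulated counts the share of changed genes recovered was 58.2% (1.5-fold) and 91.0% (2-fold) for the GFP response, and 11.9% and 67.2% for the interaction. It was 52.2% and 85.1% for the THOC5 response, and 56.7% and 94.0% between THOC5 and GFP cells in growth medium. The simulation changed 67 genes at each of these folds, all above a minimum mean, so it does not cover the scarcer members. It left nearly all other genes unchanged, whereas 10.6% of genes fell and 10.3% rose in the GFP response of the data. As the adjusted p depends on the share of changed genes, the recovery in the data may differ. Coordinates and exon lengths came from GENCODE M21 (GRCm38), in which all 74 members had exactly 1 entry, and promoters from RefSeq. Figures were drawn with matplotlib 3.10.9.

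The members and lists were chosen with earlier results of these data known. Values in each library are given for members that passed in at least 1 contrast with a mean of at least 50, for the 4 Timp genes, and for Adam10, Adam17, Mmp2 and Mmp14. Members that passed with a lower mean are named with values, and of each other list the 4 genes with the smallest p in the GFP response are named. Columns were matched to samples through the description label, also for THOC5 growth replicates 1 and 2, whose column names carry other numbers. Not every gene of the other lists is reported here.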

Additional observations from a re-analysis of the deposited data

Results flagged for a closer look

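The response to osteogenic medium differed between THOC5 and GFP cells by the test of the difference itself (limma interaction, Benjamini-Hochberg adjusted p at most 0.05) for 19 members, and these values are THOC5 response minus GFP response on the log2 scale. Among ADAMs the difference was 2.54 for Adam12, 1.37 for Adam33, 0.53 for Adam15 and 0.52 for Adam19. Among ADAMTS genes it was 1.52 for Adamts9, 1.50 for Adamts1, 1.28 for Adamts5, 1.25 for Adamts12, 1.18 for Adamts2 and 0.51 for Adamts4. The ADAMTS-like genes Adamtsl4 and Adamtsl3 differed by 1.32 and 1.19. Among MMPs the difference was 1.38 for Mmp23, 1.14 for Mmp3, 0.94 for Mmp14, 0.74 for Mmp11, 0.65 for Mmp2 and 0.64 for Mmp19, and for the inhibitor Timp1 it was 0.53. In each of the 19 the GFP response was a fall, and the THOC5 response did not pass. None of the 19 interaction calls was kept under every alternative, as given below.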

How the results depend on the processing

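Of the 27 calls in the GFP response, 18 were kept under each of the 18 alternatives, and counts ranged from 20 to 31. Of the 28 calls between THOC5 and GFP cells in osteogenic medium, 17 were kept under each, and counts ranged from 21 to 30. No call among the 40 members followed changed sign. With only the 4 GFP libraries fitted, Adam9, Adam10, Adam15, Adamts5, Adamts6 and Adamts14 no longer passed in the GFP response, and no member was gained. With 1 library left out at a time, counts ranged from 20 to 27, from 21 to 28, and for the interaction from 0 to 18, while the THOC5 response and the comparison in growth medium stayed at 0. A lone library is then assumed to vary like the other groups. No interaction call was kept under every alternative. With any value above 0 as the filter the interaction gave 14 calls, and with at least 10 in 2 libraries 23. Scaling to library totals moved the median of all genes by 0.14 in the GFP response, by -0.17 between THOC5 and GFP cells in osteogenic medium and by -0.11 in the interaction, and called 23, 28 and 18 members.

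Correlations of same-numbered libraries were 0.40 between GFP growth and THOC5 growth and 0.14 between both GFP groups, and between -0.19 and -0.01 for the other 4 pairs of groups. As not every pair exceeded 0.1, the numbers were taken as names. A replicate block called 26, 0, 0, 28 and 20 members in the GFP response, the THOC5 response, growth medium, osteogenic medium and the interaction. At this depth, 17 members had at most the 3 reads that a count of 0 allows in every library.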

Other observations

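The 2 GFP osteogenic libraries differed from each other for several members. Adamts5 counted 632 and 1194 normalized counts, Mmp13 457 and 262, and Mmp10 116 and 57.2, and these 3 genes were chosen after their values were seen. In GFP osteogenic library 1 Adamts5 was lower, and Mmp13 and Mmp10 were higher, than in library 2. Mmp13, the 21st member per kilobase in GFP growth, was the 11th in GFP osteogenic, where its mean was 134 ± 51.5 normalized counts per kb (SD, n = 2).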
